A study of Mus musculus with 8 samples.

Results

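The comparison described here is between a pair of H3K36me3 ChIP-seq libraries from mouse embryonic fibroblasts (MEFs) in which reprogramming had been switched on, one made with vitamin B12 in the medium (OSKM B12) and one without it (OSKM). With their inputs they make up 4 of the 8 samples of the series. The members are the protein-coding gene bodies of chromosomes 1 to 19 (GENCODE M21 annotation, mm10 build): 20807 genes, of which 9498 were called measured because at least 10% of the body lay in peaks in MEF or MEF B12, the H3K36me3 libraries of the same MEFs without doxycycline. The choice of measured genes therefore used neither of the compared libraries.

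All MEFs came from the i4F mouse line, in which doxycycline switches on a transgene for the reprogramming factors: Pou5f1 (Oct4), Sox2, Klf4 and Myc (together OSKM). They were taken from E13.5 embryos, the labels give all of them as Clone 1, and all were grown in medium for induced pluripotent stem cells. MEF cells received neither agent, MEF B12 cells received 2 µM vitamin B12, OSKM cells received 1 µg/ml doxycycline as the labels give it (the methods name 1 mg/ml), and OSKM B12 cells received both, each for 72 h. Each condition had 1 biological sample, so the comparison has no replicate check. No p-values are given, and the intervals printed are 95% counting intervals of single genes, which cover counting error only.

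H3K36me3 is the trimethylated form of lysine 36 of histone H3. SETD2, which travels with elongating RNA polymerase II, writes it along the bodies of transcribed genes, so that the mark is low at the promoter and high towards the gene's end. The methyl groups come from S-adenosylmethionine, and vitamin B12 is the cofactor of methionine synthase (Mtr), the enzyme that regenerates methionine for that pool. H3K36me3 is known for keeping transcription from starting inside gene bodies.

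The libraries held 33399267 ChIP tags in OSKM and 29627886 in OSKM B12, with 34524486 and 36150875 tags in their inputs. OSKM had 64364 peaks on chromosomes 1 to 19, covering 91.8 Mb, and OSKM B12 had 67234 peaks covering 163 Mb. MEF and MEF B12 covered 150.5 Mb and 163 Mb. The quantity compared is the H3K36me3 density of a gene: the peak pileup (overlapping ChIP fragments), summed over the bases of the body that lay in peaks, divided by the body's length and by the ChIP tags in units of 1000000. Bases outside peaks count as 0, so a density of 0 says that no peak was called, not that no tag was there. The counting intervals likewise use only tags estimated inside peaks. They leave out the effect of the calling threshold, which is large for genes with little of the body in peaks. Changes are on the log2(density + 0.05) scale, which understates the change of genes with low densities.

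OSKM B12 had the higher density in 9403 of the 9498 measured genes. The median density was 0.137 in OSKM and 0.348 in OSKM B12, beside 0.278 in MEF and 0.330 in MEF B12. The median log2 change was 0.98, with quartiles of 0.84 and 1.15, and the median ratio of the densities themselves was 2.37. For 9305 genes the counting interval of the ratio lay above 1. These counts rest on the wider peaks of OSKM B12: with its peaks taken in order of p-value until they covered as many bases as those of OSKM, an alternative chosen after seeing the data, 26.7% of the genes had the lower density in OSKM B12 and the median log2 change was 0.64. The rest of the text asks which genes departed from that common difference. A gene was counted as departing when its log2 change lay at least 0.5 (a factor of 1.414) from the median: 622 genes, 6.55% of those measured, lay above by that much and 328, or 3.45%, lay below. Of the 328, 61 had no base in a peak in OSKM or OSKM B12 and so counted as below by construction.

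**Figure D1:**
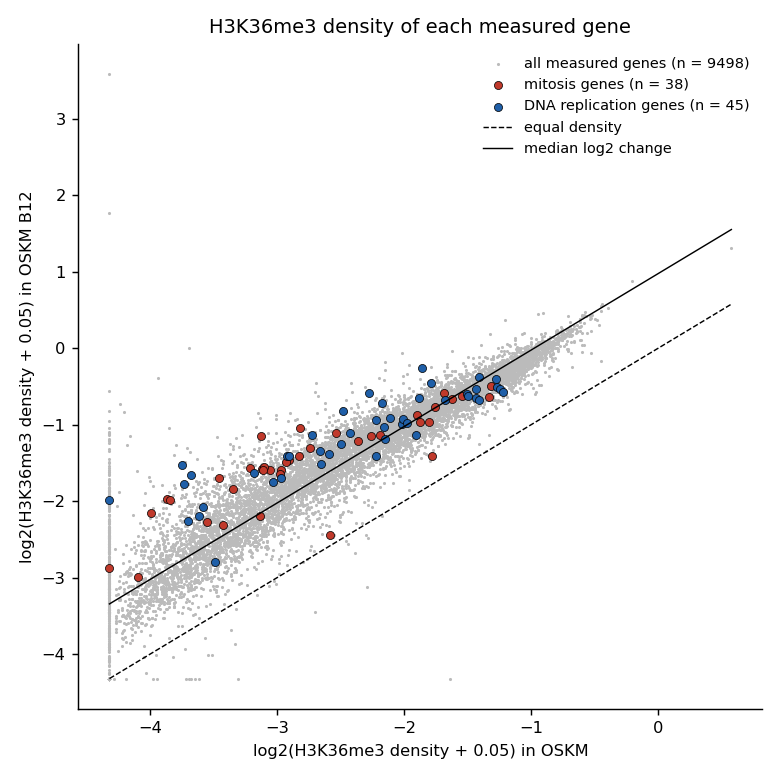
H3K36me3 density (pileup per 1000000 tags) of each measured gene in OSKM (x axis) and OSKM B12 (y axis), both as log2(density + 0.05); grey points are the 9498 measured genes, red points the 38 mitosis genes and blue points the 45 DNA replication genes, the dashed line marks equal densities and the solid line the median log2 change of 0.98. Nearly all points lie above the dashed line, and most mitosis genes with low densities in OSKM lie above the solid line. The points far up at the left edge are Gm10800 and Gm10801, with densities of 11.97 and 3.35 in OSKM B12 and no base in a peak in OSKM.

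The difference was made of wider coverage and of a higher pileup. Over the bases called in both libraries, the pileup per 1000000 tags was higher in OSKM B12 by a median log2 value of 0.58 over the 9021 genes with such a base. The bases called in both MEF and MEF B12 were covered at a median of 64.4% per gene in OSKM and 96.1% in OSKM B12. Across genes the change in density and the change in pileup over shared bases had a Pearson's r of -0.06 and a Spearman's rho of -0.13 (9021 genes of the same libraries, which are not independent replicates).

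The level of a gene in the MEF libraries was related to both measures. In the lowest decile of density in MEF and MEF B12 the median log2 change was 0.77, in the fourth it was 1.10, and in the highest it was 0.91. The pileup over shared bases instead differed more with each decile, from 0.35 in the lowest to 0.80 in the highest. The pseudocount lowers the density change of weakly marked genes most. Median densities in the lowest decile were 0.0134 in OSKM and 0.0644 in OSKM B12. They were 0.0852 and 0.237 in the fourth decile, and 0.421 and 0.836 in the highest. The ratio of these medians was thus largest in the lowest decile. The covered share went from 19.02% to 39.96% in the fourth decile and from 73.5% to 85.3% in the highest, where OSKM already covered most of the body. Genes that lay at least 0.5 above the median made up 13.3% of the fourth decile and 0.737% of the highest. For some lists the departure is therefore also given against the median of genes in the same decile (level-matched).

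**Figure D2:**
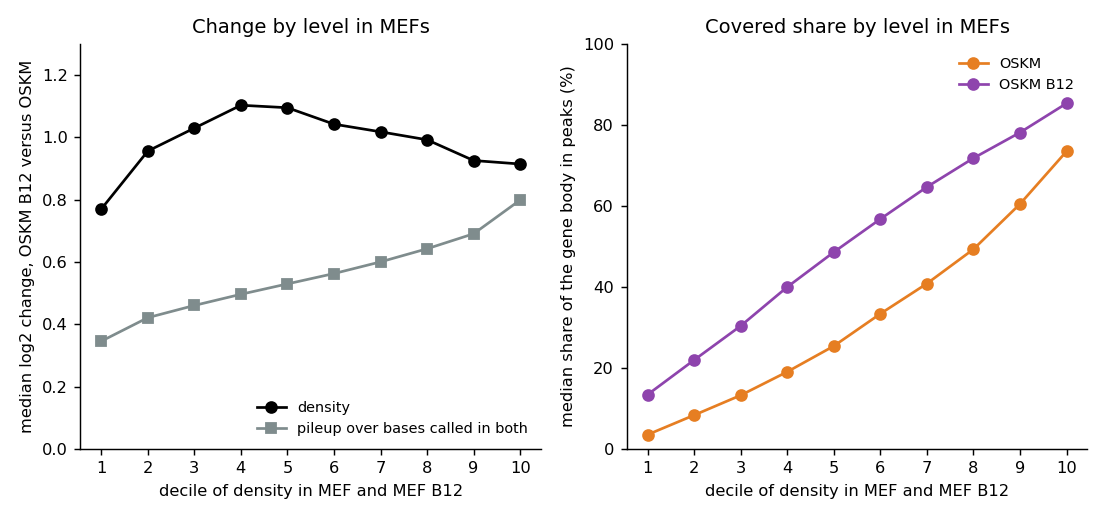
Measured genes in 10 deciles of their mean density in MEF and MEF B12 (x axis, 949 or 950 genes each). Left, the median log2 change from OSKM to OSKM B12 in density (circles) and in pileup over bases called in both libraries (squares); right, the median share of the gene body in peaks (%) in OSKM (orange) and OSKM B12 (purple). The density curve is highest at 1.10 in the fourth decile, while the shared-base curve goes from 0.35 to 0.80.

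Other properties of genes went with smaller differences. By length, the median log2 change was 0.95 in genes under 5 kb, 1.01 in the class above 50 kb and 0.87 in the longest class. The longest class was weakly marked, so the pseudocount lowers its change most. Its median densities were 0.0350 in OSKM and 0.114 in OSKM B12, against 0.130 and 0.340 in genes under 5 kb. Short genes were spread more widely: 20.6% of those under 5 kb lay at least 0.5 above the median and 14.9% at least 0.5 below, against 1.90% and 1.03% in the class above 50 kb. By chromosome the medians ran from 0.93 on chromosome 8 to 1.02 on chromosome 16. In the quintile of gene bodies lowest in GC the median was 1.06, and in the highest it was 0.94.

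The genes at least 0.5 above the median were short and thinly covered in OSKM. Their median body of 9.04 kb was 8.52% in peaks in OSKM and 47.04% in OSKM B12, against 29.5% and 52.7% in a median body of 21.7 kb over all measured genes. Of the bases called in both MEF libraries they kept a median of 22.5% in OSKM and 93.9% in OSKM B12. The genes at least 0.5 below were weakly marked in all 4 libraries: 9.14% of the body lay in peaks in OSKM and 10.7% in OSKM B12, and their median density in the MEF libraries was 0.0732, against 0.304 for all. Both sets were chosen by their OSKM and OSKM B12 densities, which count only bases in peaks. Their covered and kept shares in these libraries therefore follow in part from the choice.

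Of 42 gene lists, 31 had at least 10 measured genes. The median of 27 of them lay within 0.1 of the median of all genes. The mitosis genes, the DNA replication genes and the Hox cluster genes lay above that range, and the clustered protocadherin genes lay below it at this pseudocount. These medians are descriptions of 1 library per condition.

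**Figure D3:**
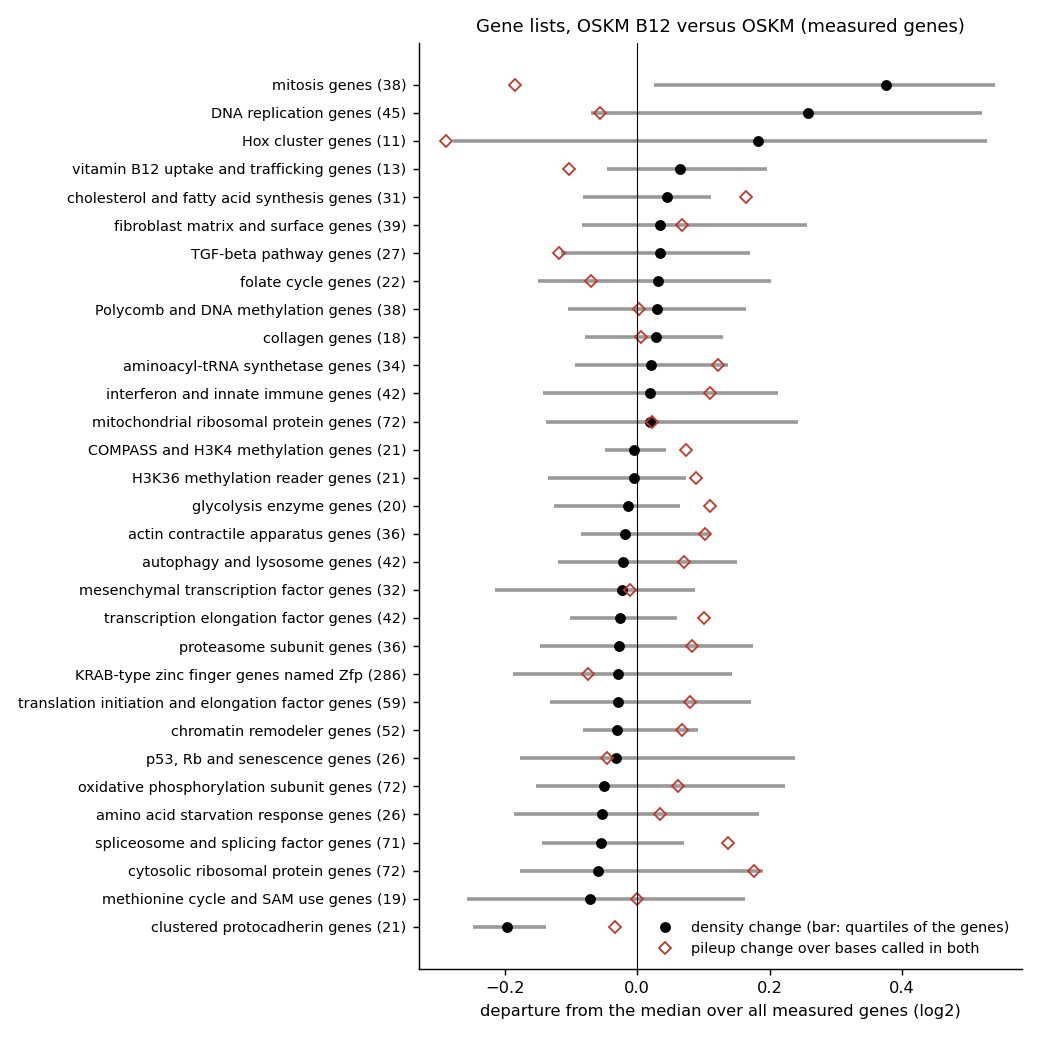
Departure of 31 gene lists from the median of all measured genes (x axis, log2), with the number of measured genes in brackets. Black points are medians of the density change with bars for the quartiles of the genes, and red diamonds are medians of the pileup change over bases called in both OSKM and OSKM B12. The mitosis genes have the highest density departure, 0.38, with a diamond at -0.18.

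The mitosis genes carried the largest list departure. Their median density was 0.0821 in OSKM and 0.309 in OSKM B12, and 0.266 and 0.350 in MEF and MEF B12. The list was thus below the median of all genes in OSKM and close to it in the other libraries. Of 39 genes 38 were measured, and 29 of the 38 lay above the median change, as 50% of all measured genes did by definition. Their median departure was 0.38 (level-matched 0.30), with 11 genes at least 0.5 above and 2 at least 0.5 below, where 6.55% and 3.45% of all measured genes lay.

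Promoters of mitosis genes are known for the cell cycle genes homology region (CHR), an element bound by the DREAM and MuvB complexes, often near a CCAAT box. RefSeq promoter windows (GRCm38.p6, the assembly also called mm10) were matched by symbol for 32 of the 38 genes. Each window was read from 250 bases before the start to 30 after it, on both strands. The CHR, searched as TTTGAA or TTCGAA, was in 20 of the 32 windows (62.5%), in 12.9% of the 7461 windows of measured genes and in 16.3% of all 15686 windows. The CCAAT box (CCAAT) was in 71.9%, 38.3% and 37.5%. A match is a description of letters, not a bound site. Among the 468 windows of genes at least 0.5 above the median, 16.9% held the CHR, and among the 245 of genes at least 0.5 below, 16.7%.

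With the CHR in capitals, these are the 4 mitosis promoters with a match whose genes departed most upward, and Cdc20, whose gene departed most downward among those with a match. All 5 were taken from the windows with a match, so they show the element's form and place, not which genes have it.
Bub1, chr2:127831830-127832109, minus strand: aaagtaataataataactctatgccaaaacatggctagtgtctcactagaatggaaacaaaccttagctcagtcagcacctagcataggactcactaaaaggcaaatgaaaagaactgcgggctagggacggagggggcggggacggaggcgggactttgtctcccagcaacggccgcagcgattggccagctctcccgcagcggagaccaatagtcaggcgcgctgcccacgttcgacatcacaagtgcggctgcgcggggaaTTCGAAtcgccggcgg
Ttk, chr9:83834439-83834718, plus strand: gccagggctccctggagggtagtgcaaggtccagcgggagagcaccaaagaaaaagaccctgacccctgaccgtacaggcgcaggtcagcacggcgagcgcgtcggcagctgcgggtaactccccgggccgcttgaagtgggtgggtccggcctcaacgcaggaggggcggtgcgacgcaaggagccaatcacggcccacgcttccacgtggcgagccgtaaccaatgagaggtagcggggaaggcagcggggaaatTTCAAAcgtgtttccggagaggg
Ect2, chr3:27153849-27154128, minus strand: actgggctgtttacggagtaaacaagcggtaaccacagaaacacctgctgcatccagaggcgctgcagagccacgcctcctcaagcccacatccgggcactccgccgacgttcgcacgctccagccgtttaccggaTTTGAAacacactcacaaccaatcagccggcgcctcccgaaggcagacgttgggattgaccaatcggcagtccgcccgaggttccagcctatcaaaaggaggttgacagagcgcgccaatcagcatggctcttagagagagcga
Mki67, chr7:135716350-135716629, minus strand: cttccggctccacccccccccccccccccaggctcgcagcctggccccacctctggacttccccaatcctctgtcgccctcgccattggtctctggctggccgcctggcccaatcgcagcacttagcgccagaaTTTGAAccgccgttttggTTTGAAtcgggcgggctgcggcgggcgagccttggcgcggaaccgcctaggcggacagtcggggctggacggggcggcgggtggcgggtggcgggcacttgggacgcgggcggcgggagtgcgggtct
Cdc20, chr4:118437314-118437593, minus strand: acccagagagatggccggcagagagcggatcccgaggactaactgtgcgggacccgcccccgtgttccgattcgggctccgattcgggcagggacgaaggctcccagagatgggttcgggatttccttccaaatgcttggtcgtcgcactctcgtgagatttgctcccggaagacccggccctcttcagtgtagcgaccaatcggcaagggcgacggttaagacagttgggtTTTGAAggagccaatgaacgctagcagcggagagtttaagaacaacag

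Genes of the spindle checkpoint differed among themselves. The density of Bub1 (chr2:127801122-127831865), a checkpoint kinase of the kinetochore, was 0.0183 (OSKM), 0.204 (OSKM B12), 0.224 (MEF) and 0.256 (MEF B12). It was low in OSKM alone, and OSKM B12 was higher by 11.1-fold (counting interval 8.67 to 14.7). Mad2l1, which holds back the anaphase-promoting complex, had densities of 0.0197 (OSKM), 0.202 (OSKM B12), 0.151 (MEF) and 0.160 (MEF B12). Ttk, the kinase that starts checkpoint signalling, had 0.0128 (OSKM), 0.174 (OSKM B12), 0.151 (MEF) and 0.190 (MEF B12). Bub1b, another checkpoint kinase, had 0.0995 (OSKM), 0.353 (OSKM B12), 0.267 (MEF) and 0.339 (MEF B12), a departure of 0.45. Bub3, which brings the checkpoint kinases to the kinetochore, lay on the other side of the median: its density was 0.347 (OSKM), 0.593 (OSKM B12), 0.608 (MEF) and 0.688 (MEF B12), and its departure was -0.28.

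The other upward members came from several steps of mitosis. Birc5 (survivin), a subunit of the chromosomal passenger complex, had densities of 0.0645 (OSKM), 0.402 (OSKM B12), 0.263 (MEF) and 0.301 (MEF B12), and its OSKM B12 value was higher by 6.23-fold (counting interval 4.54 to 8.57). Its partner kinase Aurkb had 0.0430 (OSKM), 0.152 (OSKM B12), 0.152 (MEF) and 0.204 (MEF B12) and a departure of 0.14, and Incenp, the scaffold of the complex, had a departure of -0.02. The members of this complex did not depart alike. Plk1, the kinase of mitotic entry and exit, had densities of 0.0914 (OSKM), 0.433 (OSKM B12), 0.356 (MEF) and 0.400 (MEF B12). Of the proteins at the kinetochore, the departures were 0.67 for Nuf2, 0.47 for Ndc80, 0.53 for the centromeric histone Cenpa and 0.45 for the motor Cenpe, but -0.03 for Spc25, which sits in one complex with Nuf2 and Ndc80. Ect2 and Kif23, which act in cytokinesis, departed by 0.78 and 0.54, and the proliferation marker Mki67 by 0.57.

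The condensin genes and cyclins were divided. Smc2, a condensin ATPase, departed by 0.56, whereas its partner Smc4 departed by 0.18, Ncaph by -0.14 and Ncapd2 by -0.16. Ccnb1 (cyclin B1) had no base in a peak in OSKM, and its density was 0 (OSKM), 0.0858 (OSKM B12), 0.0885 (MEF) and 0.148 (MEF B12). Ccnb2, Ccna2 and Cdk1, the cyclins and kinase that drive entry into mitosis, departed by 0.02, -0.07 and 0.13.

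The 2 members that departed downward by 0.5 or more both act at the anaphase-promoting complex. Pttg1 (securin, chr11:43420250-43426251), the inhibitor of separase, had densities of 0.117 (OSKM), 0.135 (OSKM B12), 0.167 (MEF) and 0.197 (MEF B12). Its OSKM and OSKM B12 values differed by less than counting error, with a ratio of 1.15-fold (counting interval 0.841 to 1.59). Cdc20, the activator of the complex, had 0.241 (OSKM), 0.326 (OSKM B12), 0.463 (MEF) and 0.501 (MEF B12), a ratio of 1.35-fold (counting interval 1.05 to 1.72). Espl1, the separase that Pttg1 holds inactive, departed by 0.08. Taking each gene's counting interval, 23 of the 38 mitosis genes lay wholly above the median ratio of 2.37 and 6 wholly below it, as 36.2% and 29.9% of all measured genes did.

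The DNA replication genes lay above the median in the same direction. Their median density was 0.349 in MEF and 0.413 in MEF B12, against 0.165 in OSKM and 0.439 in OSKM B12. Of 50 genes 45 were measured, 32 of them above the median change, with a median departure of 0.26 (level-matched 0.18). At least 0.5 above lay 12 genes, or 26.7%, and at least 0.5 below lay 0, where 6.55% and 3.45% of all measured genes lay. By counting intervals, 25 of the 45 genes lay wholly above the median ratio and 11 wholly below it, beside the same 36.2% and 29.9% of all measured genes.

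E2F factors are known regulators of replication genes. Their element, searched as TTTGGCGC or TTTCGCGC on both strands of the same windows, was in 6 of 39 replication gene windows (15.4%), in 1.62% of those of measured genes and in 1.01% of all. These are the 3 with a match whose genes departed most upward, with the E2F letters in capitals (a match may overlap another).
Mcm5, chr8:75109259-75109538, plus strand: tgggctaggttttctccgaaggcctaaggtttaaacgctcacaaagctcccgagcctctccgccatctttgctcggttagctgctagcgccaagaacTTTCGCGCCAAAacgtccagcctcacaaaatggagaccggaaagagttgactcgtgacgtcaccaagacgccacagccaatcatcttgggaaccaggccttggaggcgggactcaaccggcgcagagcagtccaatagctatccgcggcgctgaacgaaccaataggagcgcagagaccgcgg
Pole2, chr12:69228161-69228440, minus strand: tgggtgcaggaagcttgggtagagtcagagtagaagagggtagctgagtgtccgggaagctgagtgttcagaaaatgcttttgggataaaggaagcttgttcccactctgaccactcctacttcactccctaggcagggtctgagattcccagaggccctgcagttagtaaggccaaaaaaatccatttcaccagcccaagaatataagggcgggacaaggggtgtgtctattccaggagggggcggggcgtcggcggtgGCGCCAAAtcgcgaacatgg
Rfc3, chr5:151651179-151651458, minus strand: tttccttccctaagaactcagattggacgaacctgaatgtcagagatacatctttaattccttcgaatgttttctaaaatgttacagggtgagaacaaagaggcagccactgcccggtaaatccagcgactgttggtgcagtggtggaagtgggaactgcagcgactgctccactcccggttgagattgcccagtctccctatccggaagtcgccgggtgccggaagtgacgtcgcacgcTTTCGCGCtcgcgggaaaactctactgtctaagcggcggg

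Mcm10 (chr2:4989714-5012791), which helps to activate the replicative helicase, had densities of 0.0243 (OSKM), 0.298 (OSKM B12), 0.241 (MEF) and 0.291 (MEF B12), and OSKM B12 was higher by 12.2-fold (counting interval 9.50 to 16.1). Cdc6, which loads that helicase at origins, had 0.0252 (OSKM), 0.242 (OSKM B12), 0.132 (MEF) and 0.224 (MEF B12). In Cdc6 the 2 libraries with B12 stood close together and OSKM was the lowest of the 4. Cdc45 and Gins3, parts of the active helicase, departed by 0.54 and 0.53.

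Within the helicase and the loading machinery the members differed. Mcm5, a helicase subunit, had densities of 0.156 (OSKM), 0.620 (OSKM B12), 0.398 (MEF) and 0.539 (MEF B12), a departure of 0.72. Its partner subunits Mcm2, Mcm3, Mcm4, Mcm6 and Mcm7 departed by -0.10, -0.21, -0.20, -0.07 and -0.10. Mcm5 thus stood apart from 5 subunits of its own complex. Cdt1, the other loader of the helicase, had 0.380 (OSKM), 0.624 (OSKM B12), 0.379 (MEF) and 0.493 (MEF B12), the lowest departure of the list at -0.33. Orc1, of the origin recognition complex, departed by -0.28 and Orc4 by 0.52.

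Polymerase and fork genes were also spread. Prim1, the primase subunit, had densities of 0.0281 (OSKM), 0.267 (OSKM B12), 0.0901 (MEF) and 0.255 (MEF B12). Pole3, a small subunit of polymerase epsilon in a body of 2.42 kb, had no base in a peak in OSKM, with densities of 0 (OSKM), 0.203 (OSKM B12), 0.230 (MEF) and 0.321 (MEF B12). Pold2 and Pold1, subunits of polymerase delta, departed by 0.63 and -0.24. Pcna, the sliding clamp, had 0.0600 (OSKM), 0.273 (OSKM B12), 0.274 (MEF) and 0.244 (MEF B12), and Rfc4, of the clamp loader, departed by 0.61 beside 0.06 for Rfc5. Top2a, the topoisomerase of dividing cells, had 0.129 (OSKM), 0.516 (OSKM B12), 0.432 (MEF) and 0.547 (MEF B12), while Top2b, the form that resting cells also use, departed by 0.29. Rrm1 and Rrm2, which make deoxynucleotides, departed by -0.08 and -0.20.

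**Figure D4:**
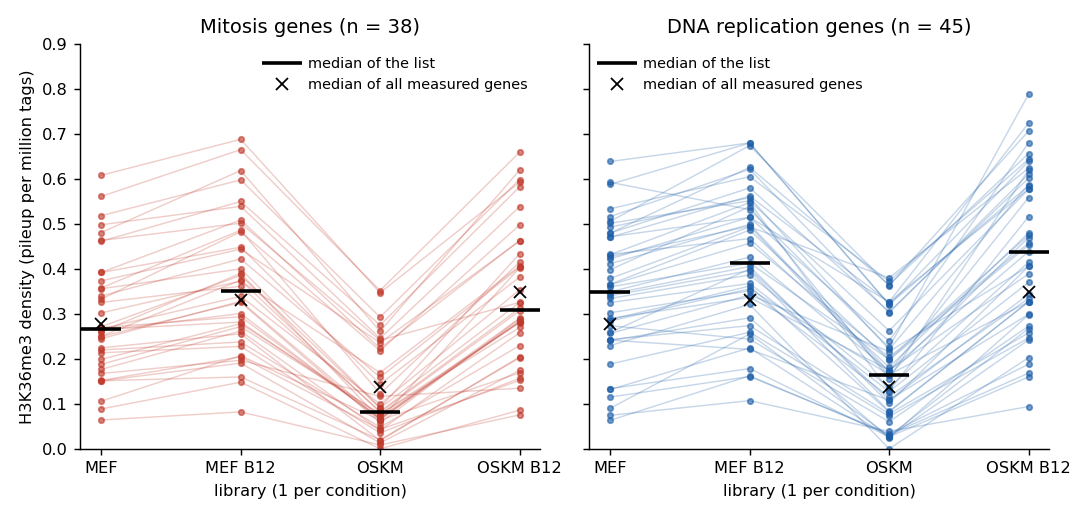
H3K36me3 density (pileup per 1000000 tags, y axis) of the 38 measured mitosis genes (left) and 45 DNA replication genes (right) in the 4 libraries (x axis); each thin line is a gene, the black bar is the median of the list and the cross the median of all measured genes. The mitosis median is 0.0821 in OSKM, below the cross at 0.137, and 0.309 in OSKM B12, nearer the cross at 0.348.

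The position of OSKM among the 4 libraries shows where these departures came from in the numbers. The median log2 difference between OSKM and MEF was -1.15 for mitosis genes, -0.89 for replication genes and -0.71 for all measured genes. Between OSKM B12 and MEF B12 the same medians were -0.07, 0.04 and 0.05. The OSKM library enters both the difference from MEF and the difference from OSKM B12, so a low OSKM value makes both large. The bases called in both MEF libraries were covered at a median of 33.7% in OSKM and 92.8% in OSKM B12 for mitosis genes, and at 53.99% and 96.3% for replication genes. In bulk chromatin, fewer cells with the mark on these genes and less of it per cell cannot be told apart. With 1 library per condition, a difference in ChIP enrichment between the libraries cannot be told apart from these either, and it was not tested.

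The upward departure of mitosis genes was one of coverage by weak peaks, and it was not kept over shared bases or with stricter or fewer peaks. Over bases called in both OSKM and OSKM B12 their pileup change lay -0.18 from the median (level-matched -0.15). With peaks of −log10 q of at least 5, 35 of the 38 genes had no base in a peak in OSKM and 21 had none in OSKM B12, against 78.5% and 19.6% of all measured genes. At equal covered length, as described above, the departure of mitosis genes was -1.03. There 22 of the 38 had no base in a peak in OSKM B12, against 22.5% of all measured genes. Replication genes departed by 0.76 with the stricter q, where 41 of the 45 (91.1%) had no base in a peak in OSKM and 8 (17.8%) had none in OSKM B12. That value thus mostly sets their OSKM B12 density against the pseudocount. At equal covered length they departed by -0.0050, and 11 had no base in a peak in OSKM B12.

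**Figure D5:**
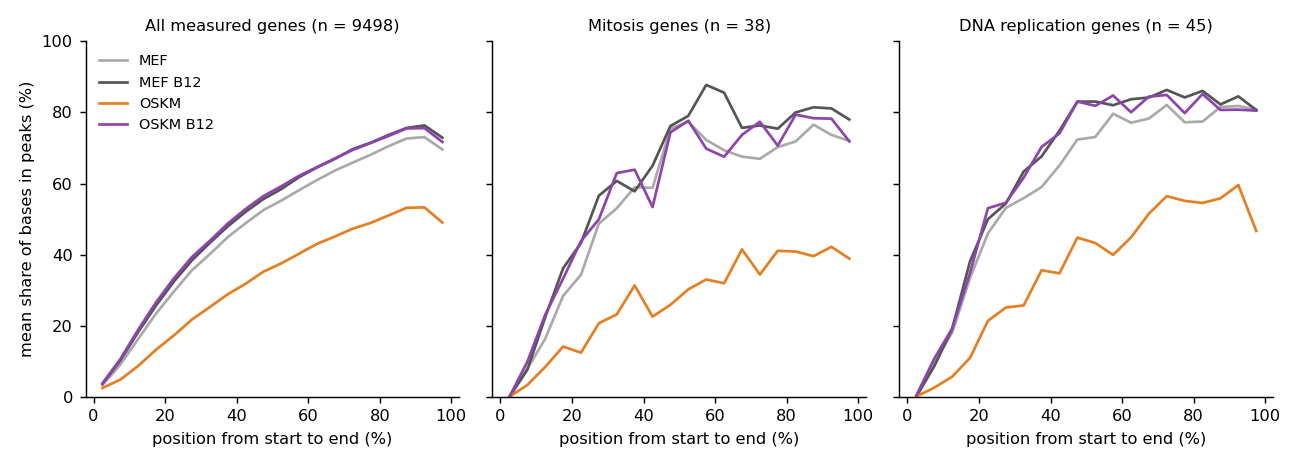
Mean share of bases in peaks (%, y axis) in 20 bins from gene start to gene end (x axis, % of the body) for all measured genes, mitosis genes and DNA replication genes, in MEF (light grey), MEF B12 (dark grey), OSKM (orange) and OSKM B12 (purple). In the middle of mitosis genes the OSKM line is at 25.9% and the OSKM B12 line at 74.4%, against 35.2% and 56.5% over all measured genes.

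In both libraries coverage was lowest at the gene start and higher towards the end. In the first of 20 bins, 2.48% of bases lay in peaks in OSKM and 3.80% in OSKM B12, and in the last bin 49.02% and 71.7%. The ratio of mean densities was 2.32 in the first bin, 3.09 in the third and 2.10 in the eighteenth. The relative difference was thus highest in the early part of the body, past the first bin. In mitosis genes the covered share of bin 10 went from 25.9% to 74.4%, and that of the last bin from 38.9% to 71.9%. Genes at least 0.5 below the median had, in bin 10, 13.6% covered in OSKM and 13.1% in OSKM B12.

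The housekeeping lists lay near the median. The 72 measured cytosolic ribosomal protein genes departed by -0.06 in density (level-matched -0.02) and by 0.18 in pileup over shared bases (level-matched 0.07). OSKM already covered a median of 85.7% of their MEF bases. Of single members, 10 (13.9%) were at least 0.5 above and 4 at least 0.5 below, where 6.55% and 3.45% of all measured genes lay. Their median body was 3.40 kb, and of all measured genes under 5 kb 20.6% and 14.9% lay so. Rpl15, of the large subunit, had densities of 0.00507 (OSKM), 0.366 (OSKM B12), 0.183 (MEF) and 0.279 (MEF B12). Rpl41 and Rps21 had peaks in both MEF libraries and no base in a peak in OSKM or OSKM B12. Ribosomal protein genes have many near-identical pseudogenes, so the values of single members are uncertain.

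Of 73 spliceosome and splicing factor genes 71 were measured. Their density departed by -0.05 and their shared-base pileup by 0.14, and against genes of the same decile by -0.0019 and 0.01, so that neither stood apart from genes of like level. At the level of single genes, 4 members (5.63%) lay at least 0.5 above with 0 at least 0.5 below, where 6.55% and 3.45% of all measured genes lay. Srsf1, a splicing factor of the SR family, had densities of 0.0467 (OSKM), 0.332 (OSKM B12), 0.392 (MEF) and 0.391 (MEF B12), and OSKM B12 was higher by 7.11-fold (counting interval 4.90 to 10.3). Snrpe, a core protein of the small nuclear ribonucleoproteins, had 0.357 (OSKM), 0.577 (OSKM B12), 0.564 (MEF) and 0.655 (MEF B12), a departure of -0.35. Mitochondrial ribosomal protein genes departed by 0.02, and oxidative phosphorylation subunit genes by -0.05. Of 72 members each, 10 (13.9%) and 9 (12.5%) lay at least 0.5 above and 1 and 5 at least 0.5 below, beside the same 6.55% and 3.45%. Their median bodies were 8.06 kb and 7.565 kb. Of all measured genes of 5 to 20 kb, 7.42% and 3.72% lay so, and of those under 5 kb 20.6% and 14.9%. Mrpl27, of the mitochondrial large subunit, had 0.0741 (OSKM), 0.497 (OSKM B12), 0.282 (MEF) and 0.434 (MEF B12). Proteasome, glycolysis, aminoacyl-tRNA synthetase and translation factor genes all departed by less than 0.1.

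The fibroblast lists were close to the median. Of 41 fibroblast matrix and surface genes 39 were measured in the MEF libraries, so that the cells carried the mark on genes that define their label, and the median departure was 0.03. Col1a1 and Col1a2, the chains of type I collagen, had 0.573 (OSKM), 1.00 (OSKM B12), 0.751 (MEF) and 0.841 (MEF B12), and 0.458 (OSKM), 0.924 (OSKM B12), 0.827 (MEF) and 0.887 (MEF B12). Vim (vimentin) departed by -0.29, Pdgfrb, a receptor of mesenchymal cells, by -0.15 and Col3a1 by -0.16. Ecm1, an extracellular matrix protein, was the exception on the upper side, with 0.0217 (OSKM), 0.365 (OSKM B12), 0.201 (MEF) and 0.240 (MEF B12), and Lum, a collagen-binding proteoglycan, departed by 0.75. Among 36 measured actin and contractile genes the median departure was -0.02. Pfn1, which supplies actin for filament growth, had no base in a peak in OSKM, with densities of 0 (OSKM), 0.405 (OSKM B12), 0.349 (MEF) and 0.445 (MEF B12), and Myl9, a myosin light chain, had 0 (OSKM), 0.189 (OSKM B12), 0.216 (MEF) and 0.211 (MEF B12). In the TGF-beta list (27 of 32 measured, departure 0.03) Ltbp3, which stores the latent ligand in the matrix, had 0.183 (OSKM), 0.637 (OSKM B12), 0.509 (MEF) and 0.534 (MEF B12), and Inhba, the activin subunit, departed by -0.55.

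Genes of the target state of reprogramming were mostly outside the measured set, which was chosen by peaks in the MEF libraries without doxycycline. That choice does not tell whether they carried the mark in OSKM or OSKM B12 at 72 h. Of 42 pluripotency network genes 8 were measured and of 38 epithelial genes 5 were. Pou5f1 and Sox2 had no base in a peak in any library. Klf4, itself one of the induced factors, had densities of 0.0462 (OSKM), 0.171 (OSKM B12), 0.218 (MEF) and 0.188 (MEF B12), and Myc had 0.0649 (OSKM), 0.132 (OSKM B12), 0.0471 (MEF) and 0.140 (MEF B12). Tags from the transgene's coding sequence could map to these genes, and their part was not tested. Klf5, a Krüppel-like factor of the pluripotency network, had 0 (OSKM), 0.112 (OSKM B12), 0.224 (MEF) and 0.259 (MEF B12), and Dnmt3b, a de novo DNA methyltransferase, had 0.0247 (OSKM), 0.0460 (OSKM B12), 0.0451 (MEF) and 0.0644 (MEF B12) with a departure of -0.61. The Dnmt3b densities were near the pseudocount of 0.05, which lowers the change of weakly marked genes, so its departure rests in part on that setting. The 5 measured epithelial genes all lay below the median change, as 50% of all measured genes did by definition. Over bases called in both OSKM and OSKM B12 their median departure was 0.04 (level-matched 0.06), on the other side. Jup, a junction protein, had 0.224 in OSKM and 0.436 in OSKM B12. Prss8, a membrane protease, had 0.153 in OSKM and 0.236 in OSKM B12, and the factor Ovol1 had no base in a peak in OSKM or OSKM B12. Ovol1 thus counted as below by construction.

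Genes of vitamin B12 use and of the methionine cycle were close to the median as lists. The 13 measured genes of B12 uptake and trafficking departed by 0.07 and the 19 of the methionine cycle and S-adenosylmethionine use by -0.07 (level-matched -0.12). Cd320, the cell surface receptor for B12 bound to transcobalamin, had densities of 0 (OSKM), 0.115 (OSKM B12), 0.101 (MEF) and 0.0435 (MEF B12), so that the only library without a peak was OSKM. Mtr, methionine synthase, had 0.179 (OSKM), 0.493 (OSKM B12), 0.387 (MEF) and 0.477 (MEF B12), with a ratio of 2.75-fold (counting interval 2.59 to 2.92), and Mtrr, which reactivates it, departed by 0.23. Mmachc, which processes B12 inside the cell, departed by -0.23. Mat2a, which makes S-adenosylmethionine, departed by 0.09, and Ahcy, which clears its product, by -0.15. Gnmt, a methyltransferase that uses up S-adenosylmethionine, had 0.0276 (OSKM), 0.340 (OSKM B12), 0.146 (MEF) and 0.104 (MEF B12). In the folate list (22 measured, departure 0.03) Tyms, which makes thymidylate, departed by 0.44, and Shmt2, the mitochondrial serine enzyme, by -0.37.

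The genes for the enzymes of the mark itself carried more of it in OSKM B12, like most genes. Setd2, the writer of H3K36me3, had densities of 0.184 (OSKM), 0.473 (OSKM B12), 0.417 (MEF) and 0.481 (MEF B12), a departure of 0.18. Nsd1, Nsd2 and Nsd3, which write the dimethyl form, departed by 0.09, 0.02 and 0.21. Of 9 measured methyltransferase genes 8 lay above the median and 0 reached 0.5, where 50% and 6.55% of all measured genes did. Of 7 measured demethylase genes 4 lay above, with Kdm2b at -0.38 and Kdm8 at 0.18. Wdr5, a subunit of the H3K4 methyltransferase complexes, had 0.348 (OSKM), 0.715 (OSKM B12), 0.544 (MEF) and 0.674 (MEF B12) and departed by -0.03. Among readers of the mark and Polycomb genes Mtf2, whose Tudor domain binds methylated H3K36, had 0.0553 (OSKM), 0.268 (OSKM B12), 0.230 (MEF) and 0.256 (MEF B12). These are levels of a histone mark on the genes, not of their products.

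Lists from other cell types were checked against the label. None of 23 muscle markers and 0 of 1413 olfactory and vomeronasal receptor genes were measured, and 2 of 23 neuronal, 4 of 19 endothelial and 7 of 19 macrophage and blood markers were. Fcer1g, an Fc receptor subunit of myeloid cells, had densities of 0.137 (OSKM), 0.682 (OSKM B12), 0.402 (MEF) and 0.557 (MEF B12). Flt1 and Eng, endothelial genes that other cells also use, had 0.00815 in OSKM and 0.0726 in OSKM B12, and 0.0291 in OSKM and 0.135 in OSKM B12. The part of such cells in the differences between OSKM and OSKM B12 was not tested.

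The clustered lists need care because their members share bases. The 21 measured protocadherin genes all lay below the median change on the log2(density + 0.05) scale, with a median departure of -0.20 (level-matched -0.16). This direction depends on the pseudocount: with 0.01 the median departure was 0.026, and by the ratio of the densities themselves 16 of the 21 had a counting interval wholly above the median ratio and 0 wholly below it. These genes nest within one another, and a median of 100.0% of each body was shared with another gene. Pcdhgc5 had 0.126 in OSKM and 0.286 in OSKM B12, and Pcdhga1 had 0.0260 in OSKM and 0.0716 in OSKM B12. The 11 measured Hox genes departed by 0.18 (level-matched 0.39), of which 7 shared more than 10% of their body with another gene, and 6 had no base in a peak in OSKM. At least 0.5 above lay 3 of them and at least 0.5 below lay 2, where 6.55% and 3.45% of all measured genes lay. Over bases called in both OSKM and OSKM B12 the Hox genes departed by -0.29 (level-matched -0.13). Hoxa5, a patterning factor, had 0 (OSKM), 0.350 (OSKM B12), 0.199 (MEF) and 0.234 (MEF B12).

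Among 62 families of at least 15 measured genes with a common symbol stem, Pex genes had the highest median departure. Pex genes encode peroxins, which build peroxisomes. The 15 measured departed by 0.22 (level-matched 0.18), 11 of them above the median, as 50% of all measured genes were by definition. At least 0.5 above lay 2 of the 15 (13.3%), where 6.55% of all measured genes lay. Over bases called in both OSKM and OSKM B12 the Pex genes departed by -0.09 (level-matched -0.08), so the upward departure was not kept there. Pex26, an anchor of the import machinery, had densities of 0.0632 (OSKM), 0.355 (OSKM B12), 0.192 (MEF) and 0.295 (MEF B12), and Pex16, which acts in membrane assembly, had 0.340 (OSKM), 0.499 (OSKM B12), 0.370 (MEF) and 0.433 (MEF B12) and the lowest departure, -0.48. Cep genes, named for centrosomal proteins, came next with 0.12 over 29 genes, followed by Gpr (0.12, 16 genes), Ap (0.10, 24 genes) and Arl (0.08, 16 genes). Over the shared bases the departures of Cep, Gpr, Ap and Arl genes were -0.07, 0.01, 0.05 and -0.10. The lowest were Smim (-0.09, 15 genes), Cox (-0.09, 19 genes), Ddx (-0.09, 30 genes), Atg (-0.08, 15 genes) and Tbc (-0.06, 18 genes). A stem is a name, not a pathway.

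The largest single departures were taken from genes of at least 5 kb, at least 30% covered in a MEF library and little overlapped, whose shared-base and level-matched departures had the same sign. Cebpg (chr7:35046422-35056573), a bZIP partner of ATF4 in the amino acid response, had densities of 0.0307 (OSKM), 0.316 (OSKM B12), 0.294 (MEF) and 0.276 (MEF B12). OSKM stood alone as the low library, and OSKM B12 was higher by 10.3-fold (counting interval 7.30 to 14.99). Lat, a membrane adaptor known from T cell signalling, had 0.104 (OSKM), 0.626 (OSKM B12), 0.406 (MEF) and 0.503 (MEF B12). Pdk2, a kinase that restrains pyruvate dehydrogenase, had 0.0515 (OSKM), 0.358 (OSKM B12), 0.186 (MEF) and 0.249 (MEF B12). Fem1c, a substrate receptor of a ubiquitin ligase, had 0.0167 (OSKM), 0.201 (OSKM B12), 0.164 (MEF) and 0.207 (MEF B12), a ratio of 12.1-fold (counting interval 8.91 to 16.6). Nagpa, which uncovers the mannose 6-phosphate tag of lysosomal enzymes, had 0.0878 in OSKM and 0.470 in OSKM B12. Fam171a2 departed by 1.08 and 4930503L19Rik by 1.08. Mrpl27, Srsf1 and Birc5 complete the 10.

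The 10 largest departures below had ratios of OSKM B12 to OSKM from 0.951 in Hook2 to 1.48 in Smim10l1, against the median of 2.37. Hook2 (chr8:84990603-85003349), which links cargo to microtubules, had 0.0693 (OSKM), 0.0659 (OSKM B12), 0.0583 (MEF) and 0.128 (MEF B12), a ratio of 0.951-fold (counting interval 0.706 to 1.28). Ddit4l, an inhibitor of mTOR signalling, had 0.0967 (OSKM), 0.0981 (OSKM B12), 0.132 (MEF) and 0.106 (MEF B12). Cdca5 (sororin), which protects sister chromatid cohesion, had 0.126 (OSKM), 0.158 (OSKM B12), 0.149 (MEF) and 0.273 (MEF B12), and 33.3% of the body in OSKM and 27.96% in OSKM B12 lay in peaks. Decr2, a peroxisomal reductase of fatty acid breakdown, had 0.163 (OSKM), 0.198 (OSKM B12), 0.199 (MEF) and 0.280 (MEF B12). Cacng7, an auxiliary subunit of glutamate receptor and calcium channels, had 0.0512 in OSKM and 0.0680 in OSKM B12, and Steap1, a membrane protein of the STEAP family, had 0.0398 in OSKM and 0.0556 in OSKM B12. Akip1 had 0.150 (OSKM), 0.198 (OSKM B12), 0.187 (MEF) and 0.122 (MEF B12), Smim10l1 0.0524 against 0.0776 (OSKM against OSKM B12) and Tm2d2 0.304 against 0.394. Pttg1 completes the 10.

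Only 34 measured genes, 0.358%, had a lower density in OSKM B12 than in OSKM, and 17 of them were under 5 kb. For 15 the counting interval of the ratio lay below 1. Tatdn3, in a body of 17.1 kb, had densities of 0.0510 (OSKM), 0 (OSKM B12), 0.0370 (MEF) and 0.0499 (MEF B12). Apoe, the lipid carrier, had 0.103 (OSKM), 0.0411 (OSKM B12), 0.0607 (MEF) and 0 (MEF B12). Id3, an inhibitor of helix-loop-helix factors, had 0.153 (OSKM), 0.135 (OSKM B12), 0.0882 (MEF) and 0 (MEF B12), and Ifitm3, an interferon-induced membrane protein, had 0.134 (OSKM), 0.119 (OSKM B12), 0.128 (MEF) and 0.0697 (MEF B12). On the same side, Asf1b, a histone chaperone of S phase, had 0.0492 (OSKM), 0.0187 (OSKM B12), 0.0294 (MEF) and 0.0416 (MEF B12), Spc24, of the kinetochore, had 0.0273 (OSKM), 0 (OSKM B12), 0 (MEF) and 0.0636 (MEF B12), and Dscc1, which acts in cohesion at the fork, had 0.0343 (OSKM), 0.0222 (OSKM B12), 0.0483 (MEF) and 0.0517 (MEF B12). These 7 genes were picked here after their values were seen. In 33 of the 34 genes the OSKM density was under 0.2.

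Some genes outside the measured set carried the mark in OSKM B12. They had less than 10% of the body in peaks in both MEF libraries and were chosen for a high density in OSKM B12, so their values are descriptions. Tek, the angiopoietin receptor of endothelial cells, had 2.84% of its 136 kb body in peaks in MEF and 3.63% in MEF B12, against 7.85% in OSKM and 26.6% in OSKM B12. Pomgnt2, an enzyme of dystroglycan glycosylation, had 2.12% of the body in OSKM and 28.01% in OSKM B12 in peaks, and Cd37, a tetraspanin of blood cells, 5.76% of the body in OSKM and 24.4% in OSKM B12. Mroh2a reached the highest density, 0.0114 against 0.243 (OSKM against OSKM B12), on 0.906% of the body in OSKM and 6.91% in OSKM B12, so a short stretch of high pileup made its value. Pi16, a secreted protein of fibroblasts, had densities of 0.0387 against 0.160, and Mrm1, a mitochondrial RNA methyltransferase, 0 against 0.108. Asic4 and Myoz3, among the 8 highest in each of the compared libraries, had 7.96% to 11.3% of the body in peaks in all 4 libraries.

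In MEFs without doxycycline, B12 went with a smaller difference. The median log2 change from MEF to MEF B12 was 0.21, beside 0.98 from OSKM to OSKM B12. These contrasts share no library. Across the 9498 genes their changes had a Pearson's r of 0.06 and a Spearman's rho of 0.07, a description over genes of the same 4 libraries. The median log2 change of mitosis genes in MEFs was 0.24 and that of replication genes 0.25. Of the 622 genes at least 0.5 above the median in OSKM B12, 51 were also at least 0.5 above the MEF median: 8.20% of the 622, and 20% of the 255 genes that lay so in MEFs. Cdc6 went with B12 in both settings, from 0.132 to 0.224 in MEFs, as did Prim1, from 0.0901 to 0.255, while Bub1, Birc5 and Plk1 had log2 changes of 0.16, 0.16 and 0.15 there.

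Few promoters lay in peaks. Of the 7461 measured genes with a promoter window of 300 bases, 232 (3.11%) had a base of it in a peak in OSKM and 162 (2.17%) in OSKM B12, with 143 in OSKM alone and 73 in OSKM B12 alone. Over all measured genes, promoters thus went the other way from gene bodies, with fewer of them in a peak in OSKM B12. MEF and MEF B12 had 154 and 152, near the OSKM B12 number. Among the 468 windows of genes at least 0.5 above the median, 14 were in a peak in OSKM and 29 in OSKM B12. For the 245 of genes at least 0.5 below, the numbers were 13 and 12. Of the 7461 windows, those in a peak in OSKM B12 held a median of 5 CpG and the others 22. No promoter of a mitosis gene was in a peak in any of the 4 libraries, 0 of 32.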

How the data were processed

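H3K36me3 ChIP-seq was compared between 1 OSKM and 1 OSKM B12 library, with MEF and MEF B12 for reference. Bowtie 0.12.9 served the authors for alignment to the mm10 build, and they called broad peaks in each deduplicated library against its input with MACS2 2.2.6, at q cut-offs of 0.05 and 0.1 per the file headers. The deposited lists give each peak's pileup signal, fold enrichment (a ratio), and p-value and q-value as −log10.

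From these, the density of each gene was computed as given above, with the tag numbers of the headers, a pseudocount of 0.05 and a departure of 0.5. A gene with 0 is one with no peak. Genes, lists and rules were chosen with earlier results of these data known. Named genes were the 10 largest departures in each direction by the rule above, the 2 largest and 2 smallest of each list, 8 genes outside the measured set by density in each library, and genes of the B12 pathway and the factors. Genes named beyond that rule, among them further mitosis and replication genes, were chosen after their values were seen. Intervals are exact binomial (Clopper-Pearson) on tags estimated from pileup inside called peaks, with 95% confidence. No test was run, since each condition had 1 library. Promoter windows of 280 bases came from RefSeq. Alternatives changed the pseudocount, peaks, bases, scaling, gene models and thresholds. Python 3.11, numpy 2.4.6, pandas 2.3.3 and scipy 1.17.1 were used, and the scripts were tested on simulated data.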

Additional observations from a re-analysis of the deposited data

Results flagged for a closer look

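The mitosis and replication genes, the 10 largest departures in each direction and the genes of the B12 pathway and factors were screened, 107 in all. In 2 of them the density ratios with B12 in the OSKM pair and the MEF pair lay on opposite sides of 1, both with counting intervals wholly beyond 1; opposite signs within counting error, and other genes, were not included. With 1 library per condition this difference was not tested. Akip1, named above among the largest downward departures, had a log2 change of 0.31 from OSKM to OSKM B12 and of -0.46 from MEF to MEF B12. Cd320, the B12 receptor, had log2 changes of 1.72 and -0.69. Its value of 1.72 depends on the pseudocount, because Cd320 had no base in a peak in OSKM.

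Chromosome X was outside the comparison. Its 256 measured protein-coding genes had a median log2 change of 1.10 from OSKM to OSKM B12, against 0.98 on the other chromosomes, and of 0.18 from MEF to MEF B12, against 0.21. Their median density in the MEF libraries was 0.135, against 0.304, and relative to genes of the same density decile their median departure was 0.15. This too was not tested.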

How the results depend on the processing

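No paired analysis was possible because only 1 library was made per condition. For the same reason no library could be left out. The median log2 change was positive under all 15 alternatives, 2 of which (MEF bases, equal covered length) were chosen after seeing the data. It was 1.19 with a pseudocount of 0.01, 0.65 with 0.2, 1.82 with peaks of −log10 q of at least 5, 0.58 over bases called in both OSKM and OSKM B12, 0.89 with fold enrichment for pileup, 0.98 (unrounded 0.9847) with genes at least 50% covered, 0.84 with pileup not divided by tags, 0.84 over bases called in both MEF libraries and 0.64 at equal covered length. The share of genes above the median by the departure was 16.7% and 1.03% at pseudocounts of 0.01 and 0.2, 40.2% at the stricter q, 0.477% over shared bases, 3.63% over MEF bases and 1.40% with a departure of 1. The share below was 2.22% with a pseudocount of 0.2, 40.1% at the stricter q, 1.45% over shared bases, 0.955% with 50% covered, 6.63% over MEF bases, 32.9% at equal length and 0.326% with a departure of 1. The share of genes lower in OSKM B12 was 0.116% at the stricter q, 0.887% over shared bases, 0.558% with fold enrichment, 0.0195% with 50% covered and 26.7% at equal length.

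Over 31 lists, 424 list medians were recomputed: 317 kept their place within the spread allowed, 96 moved and 11 reversed. The reversed departures were, for mitosis genes, -1.82 at the stricter q, -0.18 over shared bases and -1.03 at equal length, and for replication genes, -0.056 over shared bases and -0.0050 at equal length. For spliceosome genes they were 0.054 with a pseudocount of 0.2, 1.06 at the stricter q, 0.14 over shared bases, 0.033 over MEF bases and 0.20 at equal length, and for protocadherins 0.026 with a pseudocount of 0.01. With stricter or fewer peaks more genes have no base in a peak, and the other causes were not tested. The mitosis value at the stricter q is the 1.82 of all genes with its sign turned, not a measured reversal. At that q 35 of the 38 mitosis genes had no base in a peak in OSKM, and 21 had none in OSKM B12. At equal length 22 of them had none in OSKM B12. Peak lists hold no value below the calling threshold, so low levels of the mark could not be compared.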

Other observations

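Other lists stayed near the median change. The 286 measured zinc finger genes named Zfp, a family rich in DNA-binding repressors, departed by -0.03, with 20 (6.99%) at least 0.5 above and 15 at least 0.5 below, beside 6.55% and 3.45% of all measured genes. The 42 interferon and innate immune genes departed by 0.02. Rsad2 (viperin), an antiviral enzyme, had densities of 0 (OSKM), 0.271 (OSKM B12), 0.223 (MEF) and 0.320 (MEF B12), and Bst2 (tetherin), which holds budding virus at the membrane, had 0 (OSKM), 0.289 (OSKM B12), 0.187 (MEF) and 0.239 (MEF B12). The 26 genes of the p53, Rb and senescence list departed by -0.03. In that list Cdkn1c, an inhibitor of cyclin-dependent kinases, had 0 (OSKM), 0.308 (OSKM B12), 0.0812 (MEF) and 0.0607 (MEF B12), while Trp53 and Cdkn1a, the tumour suppressor and its target, departed by 0.06 and -0.12. The amino acid starvation list departed by -0.05 over 26 genes, with -0.26 for its factor Atf4 and -0.08 for asparagine synthetase. Transcription elongation factor genes, 42 of 43 measured, departed by -0.03, and only 6 of 76 histone genes were measured.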
